A study of Homo sapiens with 9 samples.

Results

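THP-1 cells that had been replated were compared with fresh THP-1 cells across all genes that the array could measure. THP-1 is a human line derived from a monocytic leukemia, whose cells grow in suspension and can be driven to resemble macrophages. The series holds 9 arrays of RNA from this line in 3 states, named fresh, replated and frozen, with 3 biological replicates each, and its title concerns RNA taken from stocks held in liquid nitrogen. The 3 replated and 3 fresh arrays are the comparison described here, 6 of 9 arrays, and of the 48803 probes on the array the 17261 whose detection score was above 0.95 on at least 3 of these 6 arrays were tested. Of these probes 13900 had a gene symbol and stood for 10648 genes, each represented by its brightest probe, and 3361 had no gene name here. No agent, genetic change or sex of cells separates the states in the labels, and both states are the same unmodified line. The sources used here do not give what replating involved, nor times of freezing, thawing or culture. All cells are 1 line, so the replicates measure the spread between samples of that line.

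Monocytic cells respond to a stimulus within minutes by transcribing immediate early genes, many of which encode transcription factors of the FOS, JUN and EGR families. Growth factor and stress signals reach these genes through MAP kinases, whose activity is then limited by induced phosphatases of the DUSP family and by the Sprouty proteins. As monocytic cells mature towards macrophages they raise lysozyme, scavenger and lipid-handling genes. The S100 and annexin genes encode calcium-binding proteins.

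Mean signal before normalization lay between 336.4 and 367.1 intensity units on the 6 arrays, and between 16898 and 17679 probes were detected per array. The root mean square difference in log2 signal between 2 arrays averaged 0.191 within fresh cells, 0.183 within replated cells and 0.237 between the states, where the 9 pairs ranged from 0.23 to 0.244. The defining markers of monocytic cells CD14, CD68, LYZ, FCER1G, TYROBP, CSF1R, SPI1, ITGAM and CYBB were detected on all 6 arrays. The T cell receptor genes CD3D, CD3E and CD3G, the B cell factor PAX5, the globins HBA1 and HBB, the platelet chemokines PF4 and PPBP, and COL1A1, COL3A1, EPCAM, CDH5 and VWF were detected on 0 of 6. Other markers of these cells were detected on some arrays: the B cell genes MS4A1 on 5 and CD79A on 4, the lymphocyte granule gene GNLY on 2 and the erythroid enzyme ALAS2 on 1. NKG7, a granule membrane gene of lymphocytes, and CD79B, a B cell receptor subunit, were detected on all 6 and were higher in replated cells, by 0.50 and 0.37 on the log2 scale, the CD79B call being lost without fresh replicate 1 (adjusted p = 0.0685), fresh replicate 3 (0.055), replated replicate 2 (0.0711) or replated replicate 3 (0.0679), and a further CD79B probe not passing at 0.54 (0.0627). Of the markers of T and NK cells 2 could be tested and 1 was higher, of B cells 4 and 1 was higher, of erythroid cells and platelets 3 and 1 was lower, and of stromal, epithelial and endothelial cells 2 and 0 were called (0 at an unadjusted p under 0.05). The summed normalized signal of the tested markers, in linear units, ran from 305.2 to 313.9 in fresh and from 395.8 to 423.8 in replated cells for T and NK cells. For B cells it ran from 773.2 to 877.7 and 865.9 to 983.5. It ran from 215.2 to 246.7 and 192.6 to 220.6 for erythroid cells and platelets, and from 150.7 to 164.4 and 152.6 to 159.1 for the last group. Whether any such cells were present in these samples of 1 line, or had a part in the results below, was not tested.

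Replated cells differed from fresh cells in 556 genes, of which 298 were higher and 258 lower. The changes were small: the median fold of the called genes was 1.33 in each direction, 38 rose and 45 fell at least 1.5-fold, and 4 rose and 9 fell at least 2-fold. A gene was called at an adjusted p under 0.05 in limma's moderated test, with Benjamini-Hochberg adjustment across the 17261 probes, and every adjusted p below is of this kind. The calls were 5.22% of genes tested (2.8% higher and 2.42% lower), or 822 of 17261 probes (4.76%, with 2.58% higher and 2.18% lower), of which 137 have no gene name here. The 3 replated arrays lay all above or all below the 3 fresh arrays for 28.5% of genes, and for all 556 called genes. Among 147 further probes of called genes, 44 were called in the same direction, 0 in the opposite direction and 103 were not called, 83 of them with the same sign.

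The number of called genes depended on each array. Omitting fresh replicates 1, 2 and 3 in turn left 282, 219 and 298 called genes, and omitting replated replicates 1, 2 and 3 left 245, 266 and 183. Leaving out frozen replicates 1, 2 and 3, which enter the fit through the shared estimate of spread, gave 439, 455 and 484. In all 9 of these fits 144 genes kept their call, 78 higher and 66 lower, and the smallest difference among them was 1.32-fold upwards and 1.28-fold downwards. Genes said below to have risen or fallen are of this kind unless the arrays whose omission ends the call are named. Counts over gene lists, and further probes of a gene, are given from the fit over all arrays. The percentage beside a list count is the share of its tested members called in either direction, to be read against 5.22% of all genes. The lists were chosen with earlier results of these data known, so these shares carry no test. In bulk RNA, fewer cells of a type and less RNA per cell cannot be told apart.

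**Figure D1:**
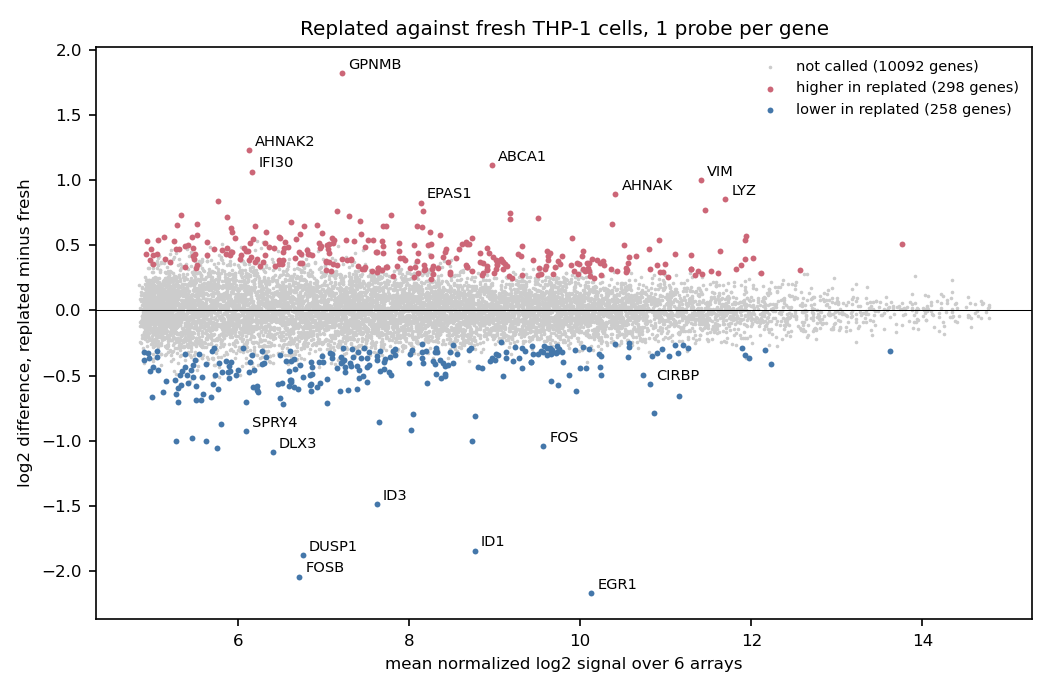
Difference between replated and fresh cells for 10648 genes (vertical axis, log2 of replated over fresh) against mean normalized log2 signal over the 6 arrays (horizontal axis), 1 probe per gene. The 298 genes higher (red) and 258 lower (blue) in replated cells lie on both sides of 0 at all signal levels, with EGR1, FOSB, DUSP1 and ID1 lowest and GPNMB highest.

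The deepest decreases in replated cells were in early transcription factor genes. In the list of these genes, which also counts the secreted protein gene CCN1, 8 of 19 tested fell and 0 rose (42.1%, against 5.22% of all genes). The median log2 difference was -0.175, against a median of -0.0013 over all genes. Between 6 and 9 fell when 1 array was left out. EGR1, a zinc finger transcription factor, read 11.10, 11.27 and 11.26 on the fresh arrays and 9.07, 8.86 and 9.19 on the replated arrays (normalized log2 signal, replicates 1 to 3 in order, as in all lists of values below). FOSB, a subunit of the AP-1 transcription factor, read 7.32, 7.89 and 7.99 in fresh and 5.71, 5.59 and 5.79 in replated cells. Both genes were lower on every replated array than on any fresh array, and the gap between states was wider than the range within either. EGR1 fell 4.49-fold (log2 difference -2.17 ± 0.11, adjusted p = 7.85e-06) and FOSB 4.11-fold (-2.04 ± 0.15, adjusted p = 5.86e-05), where ± gives the standard error of the fitted log2 difference with n = 3 arrays per state, here and throughout.

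FOS, which pairs with JUN in AP-1, read 9.88, 10.15 and 10.23 in fresh and 8.97, 9.20 and 8.96 in replated cells, a 2.06-fold fall (-1.04 ± 0.10, adjusted p = 0.000628). The nuclear receptor gene NR4A2 read 6.21, 6.23 and 6.27 against 5.58, 5.22 and 5.30 and fell 1.83-fold (-0.87 ± 0.090, adjusted p = 0.000826). JUN read 7.69, 7.58 and 7.81 against 6.94, 7.16 and 7.16 and fell 1.52-fold (adjusted p = 0.00595). The states did not overlap for any of these genes. CCN1, a secreted matricellular protein gene, was detected on the 3 fresh arrays (5.85, 5.75 and 5.73) and on 0 of the 3 replated arrays, and was at least 1.78-fold lower in replated cells (adjusted p = 0.00151), against the dimmest detected signal on those arrays. Not all early genes moved: ATF3 differed by 0.05 ± 0.12, EGR3 by 0.09 ± 0.17 and the early regulator MYC by 0.16 ± 0.079, none of which passed the test, and another MYC probe differed by 0.37 (adjusted p = 0.0508).

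Several feedback inhibitors of MAP kinase signalling were lower too. In the list of such genes, which also counts the G protein regulator RGS16, 6 of 15 fell and 0 rose (40%, against 5.22% of all genes). The median was -0.253. The count was 3 without fresh replicate 1 or without replated replicate 3, and 4 or 5 without any other array. DUSP1, which dephosphorylates and so inactivates MAP kinases, read 7.49, 7.74 and 7.85 in fresh and 5.94, 5.64 and 5.87 in replated cells. SPRY4, a Sprouty inhibitor of receptor tyrosine kinase signalling, read 6.61, 6.57 and 6.48 against 5.65, 5.61 and 5.63. RGS16, which speeds the inactivation of G proteins, read 6.04, 6.24 and 5.56 against 5.05, 4.92 and 4.95, and 2 of its 3 replated values were above background. For each gene the highest replated array was below the lowest fresh array, with RGS16 the most variable in fresh cells. DUSP1 fell 3.67-fold (-1.88 ± 0.11, adjusted p = 1.3e-05), SPRY4 1.90-fold (-0.92 ± 0.063, adjusted p = 4.09e-05) and RGS16 1.97-fold (-0.98 ± 0.15, adjusted p = 0.00735). DUSP6, a phosphatase of ERK, differed by -0.25 ± 0.19 and did not pass.

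The promoters of EGR1 and DUSP1 are printed because these genes fell most among the early factors and the feedback inhibitors and each holds an element known from stimulus-driven genes. Each is the 250 bases before the annotated start, 5′ to 3′ on the gene's strand (RefSeq, GRCh38.p14). Capitals mark the CArG boxes, the element bound by serum response factor, in EGR1 (chr5:138465229-138465478, plus strand). In DUSP1 (chr5:172771196-172771445, minus strand) they mark TGACGTCA, the cyclic AMP response element.
EGR1: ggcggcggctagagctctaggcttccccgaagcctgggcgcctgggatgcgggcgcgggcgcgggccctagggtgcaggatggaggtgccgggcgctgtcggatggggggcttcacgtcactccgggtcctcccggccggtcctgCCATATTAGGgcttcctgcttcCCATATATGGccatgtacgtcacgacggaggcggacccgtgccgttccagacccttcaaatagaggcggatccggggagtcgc
DUSP1: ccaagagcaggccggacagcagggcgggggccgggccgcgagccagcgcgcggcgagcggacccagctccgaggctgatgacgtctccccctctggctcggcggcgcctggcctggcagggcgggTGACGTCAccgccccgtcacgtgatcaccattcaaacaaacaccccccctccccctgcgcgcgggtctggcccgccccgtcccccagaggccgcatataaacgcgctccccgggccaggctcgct

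The CArG boxes of EGR1 began 105 and 83 bases before the start, and the TGACGTCA of DUSP1 began 125 bases before it. Among the 8765 tested genes with a promoter in the table a CArG box on either strand was present in 1.06%, in 1.28% of 235 promoters of genes that were higher and in 0.505% of 198 promoters of genes that were lower, counted over 300 bases that run to 50 bases after the start. The cyclic AMP element was present in 3.35%, 0.851% and 4.04% in the same order. Over the called genes as a whole these letters were therefore rare. The 1 promoter of the 198 of lower genes that held a CArG box was that of EGR1, which was printed for holding it. A match of letters in this window is a description of the sequence and not a binding site.

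ID and SMAD pathway genes formed the other group with deep decreases. ID proteins bind basic helix-loop-helix factors and block them from DNA, and the ID genes are targets of bone morphogenetic protein signals carried by SMAD proteins. Of 19 genes tested 6 fell and 2 rose (42.1%, against 5.22% of all genes), with a median of -0.029. The count of falls was 4 without replated replicate 3, and 5 or 6 without any other array. The count of rises was 2 without fresh replicate 3 and 1 without any other array. ID1 read 9.66, 9.80 and 9.60 in fresh and 7.80, 7.89 and 7.84 in replated cells, a 3.58-fold fall (-1.84 ± 0.081, adjusted p = 2.26e-06). ID3 read 8.42, 8.35 and 8.32 against 6.90, 6.91 and 6.82, a 2.80-fold fall (-1.49 ± 0.064, adjusted p = 2.26e-06). The replated arrays lay close together and far below the fresh arrays, and these were the smallest adjusted p values of all genes named here. Another ID1 probe was called lower too, at -1.12 on the log2 scale.

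SMAD7, an inhibitory SMAD that limits transforming growth factor beta signals, averaged 8.07 on the fresh and 7.22 on the replated arrays and fell 1.81-fold (adjusted p = 0.000149), while another probe for it differed by -0.54 (adjusted p = 0.113). BAMBI, a decoy receptor of the same family of ligands, read 7.27, 7.01 and 7.22 against 6.58, 6.58 and 6.48 and fell 1.54-fold (adjusted p = 0.00362). SMAD3, a receptor-activated SMAD, went the other way: it read 7.69, 7.89 and 7.81 against 8.30, 8.29 and 8.32 and rose 1.42-fold (adjusted p = 0.00581). SMAD6, another inhibitory SMAD, fell 1.30-fold (adjusted p = 0.0119, and 0.0548 without replated replicate 3). The receptor genes TGFBR1, TGFBR2 and BMPR2 did not pass, at 0.05, 0.10 and 0.09.

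Among receptors, cytokines and their regulators, several single genes fell. IL21R, the receptor of interleukin 21, read 6.30, 6.30 and 6.26 against 5.09, 5.19 and 5.40 and fell 2.08-fold (-1.06 ± 0.088, adjusted p = 0.000152). It was the 1 call among 29 cytokine and growth factor receptors (3.45%, against 5.22% of all genes). OSM, which encodes the cytokine oncostatin M, read 6.23, 6.24 and 5.91 against 5.13, 5.19 and 5.08 and fell 2.00-fold (adjusted p = 0.00595). ALOX5AP, the membrane partner of 5-lipoxygenase in leukotriene synthesis, read 11.41, 11.50 and 11.52 against 10.79, 10.91 and 10.76 and fell 1.58-fold (adjusted p = 0.00116). In the list of 28 cytokine, chemokine and lipid mediator genes 5 fell and 3 rose (28.6%, against 5.22% of all genes, median -0.067). Falls numbered 2 without fresh replicate 2, fresh replicate 3 or replated replicate 2, and 3 without replated replicate 1 or 3. Rises numbered 0 without fresh replicate 1 or replated replicate 1 or 2, 1 without fresh replicate 3, replated replicate 3 or frozen replicate 3, and 2 without any of the rest. NFKBIA, the inhibitor of NF-kB, fell 1.41-fold (-0.50 ± 0.083, adjusted p = 0.0101). It was the 1 call among 19 NF-kB regulators (5.26%, against 5.22% of all genes).

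Other single decreases were as consistent between arrays. CD1D, which presents lipid antigens, read 9.20, 9.27 and 9.24 against 8.25, 8.28 and 8.19 and fell 2.00-fold (adjusted p = 2.49e-05). DLX3, a homeobox transcription factor gene, read 6.99, 6.95 and 6.91 against 5.83, 5.94 and 5.82 and fell 2.13-fold (adjusted p = 4.17e-05). DNASE2, a lysosomal nuclease gene, read 11.22, 11.27 and 11.26 against 10.46, 10.51 and 10.43 and fell 1.72-fold (adjusted p = 0.000219). In each the range within a state was a small part of the gap between states. HSD11B1, which regenerates active glucocorticoid, fell 1.75-fold on its brightest probe and 1.64-fold and 1.66-fold on 2 others, and all 3 were called. TRIB1, a pseudokinase gene, fell 1.89-fold (adjusted p = 0.00129), PMAIP1, the pro-apoptotic NOXA, 1.73-fold (adjusted p = 0.00946, with another probe at -0.40 and 0.145), and GATA2, a progenitor transcription factor, 1.48-fold (adjusted p = 0.00782).

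**Figure D2:**
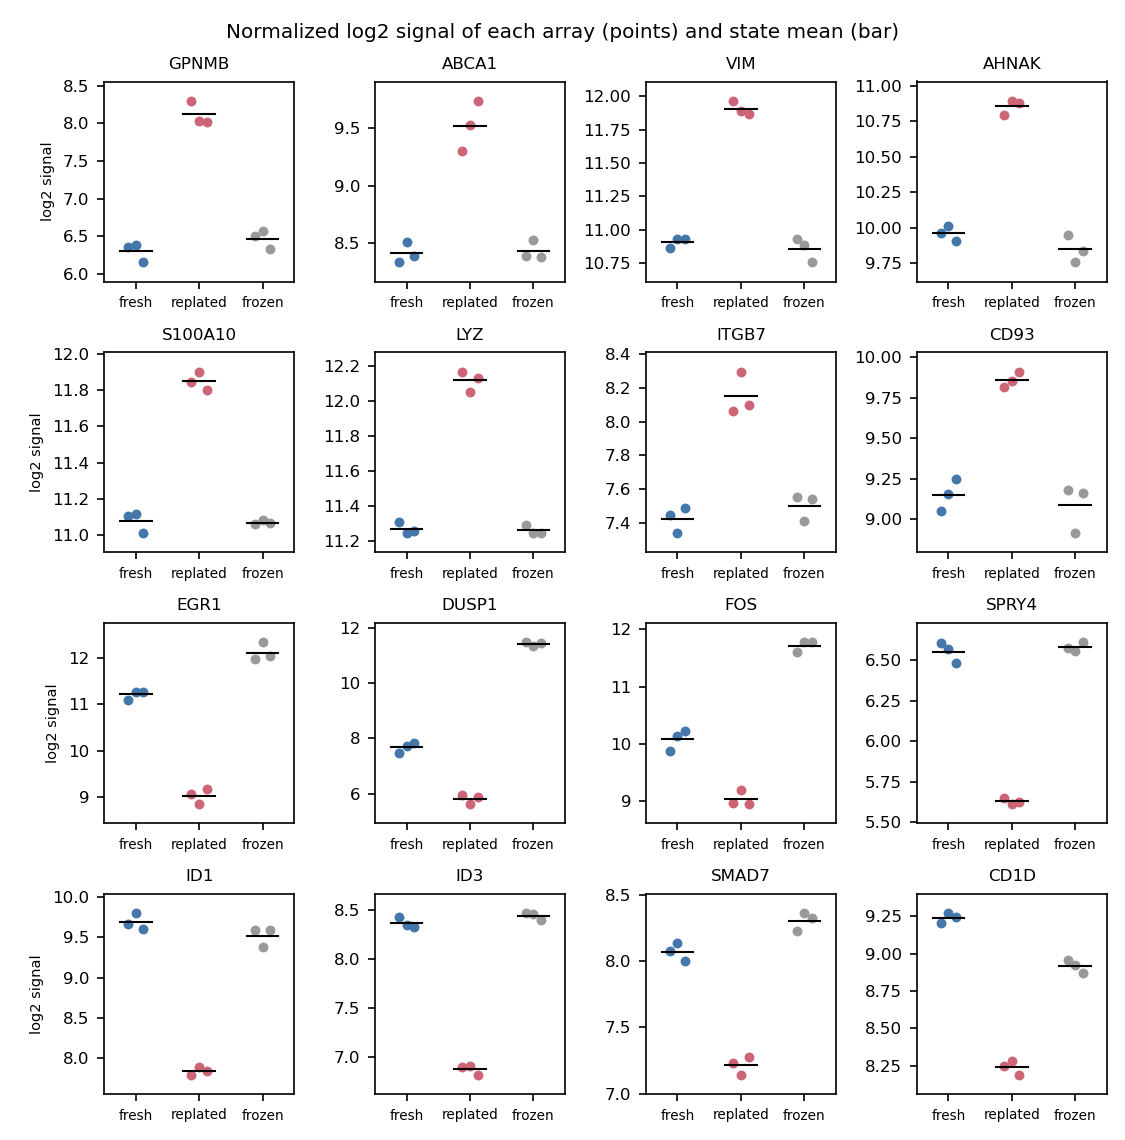
Normalized log2 signal (vertical axis, own scale in each panel) of 16 genes on the 3 fresh (blue), 3 replated (red) and 3 frozen (grey) arrays, with the mean of each state as a bar. In all 16 panels the replated arrays do not overlap the fresh arrays: 8 genes are higher in replated cells and 8 lower, and frozen arrays lie near the fresh ones for GPNMB, VIM and ID3 but above them for EGR1, DUSP1 and FOS.

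GPNMB, a transmembrane glycoprotein of macrophages and pigment cells, led the increases. It read 6.36, 6.38 and 6.15 in fresh and 8.30, 8.03 and 8.03 in replated cells, a 3.53-fold rise (1.82 ± 0.10, adjusted p = 1.3e-05), and its other probe was called 2.45-fold higher. LYZ, which encodes lysozyme, read 11.31, 11.24 and 11.25 against 12.17, 12.05 and 12.13 and rose 1.81-fold (0.85 ± 0.063, adjusted p = 6.21e-05). LGALS3, a galectin of macrophages, read 6.11, 6.27 and 6.20 against 6.84, 6.72 and 6.71 and rose 1.48-fold (adjusted p = 0.0106). The 3 genes were higher on every replated array. Of 24 macrophage markers tested 6 rose and 1 fell (29.2%, against 5.22% of all genes), with a median of 0.112. Between 4 and 6 rose when 1 array was left out. The 1 fall was kept without frozen replicate 2 or 3 and lost without any other array. CYBB, the catalytic subunit of the phagocyte oxidase, rose 1.55-fold (adjusted p = 0.0134, and 0.0521 without replated replicate 1). The surface markers CD14, CSF1R and ITGAM did not pass, at 0.10 ± 0.071, -0.02 ± 0.069 and 0.03 ± 0.10, nor did SPI1, the lineage factor PU.1, at -0.09 ± 0.076. Of 26 myeloid transcription factor genes 0 were called, and 7 had an unadjusted p under 0.05 in limma's test, a level reached by 2339 of all 10648 genes (22%).

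Cholesterol export and lipid synthesis genes were higher in replated cells in part. ABCA1, which exports cholesterol and is a target of the liver X receptor, read 8.33, 8.51 and 8.39 in fresh and 9.31, 9.53 and 9.74 in replated cells, without overlap. It rose 2.17-fold (1.12 ± 0.11, adjusted p = 0.000419). SCD, the stearoyl-CoA desaturase, read 10.71, 10.60 and 10.67 against 11.05, 11.24 and 11.30 and rose 1.45-fold (adjusted p = 0.00872). SREBF1, which activates lipid synthesis genes, rose 1.70-fold (adjusted p = 0.0148), a call lost without replated replicate 2 (0.0512) or replated replicate 3 (0.0585), and its other probe differed by 0.45 (adjusted p = 0.203). Of 19 targets of the liver X receptor and cholesterol efflux genes 4 rose and 0 fell (21.1%, against 5.22% of all genes, median 0.104). The count of rises was 2 without replated replicate 2 or 3 and 3 without any other array. ABCG1 and PLTP, further targets, differed by -0.11 ± 0.17 and 0.14 ± 0.084 and did not pass. Of 23 fatty acid and triglyceride genes 4 rose and 0 fell (17.4%, median 0.106), with 2 rising without replated replicate 2 and 1 without replated replicate 3. The lists share members: SCD is counted in this list and in that of the liver X receptor. Of 20 sterol synthesis genes 3 rose and 0 fell (15%, median 0.131). Rises numbered 1 without fresh replicate 1 or replated replicate 2 or 3, and 2 without fresh replicate 2 or any 1 of the frozen arrays. MSMO1, a sterol demethylating oxidase, read 8.47, 8.40 and 8.38 against 8.85, 8.91 and 9.01 and rose 1.42-fold (adjusted p = 0.00391), while another probe for it differed by 0.59 (adjusted p = 0.0708).

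The promoters of GPNMB (chr7:23246525-23246774, plus strand) and ABCA1 (chr9:104928156-104928405, minus strand) are printed, again as the 250 bases before the start from RefSeq GRCh38.p14. GPNMB rose most among the macrophage markers and ABCA1 among the liver X receptor targets and cholesterol efflux genes. Capitals mark the AP-1 letters TGANTCA and the MITF box TCATGTG (here on the opposite strand) in GPNMB. In ABCA1 they mark the E-box CACGTG and the TATA box TATAAA.
GPNMB: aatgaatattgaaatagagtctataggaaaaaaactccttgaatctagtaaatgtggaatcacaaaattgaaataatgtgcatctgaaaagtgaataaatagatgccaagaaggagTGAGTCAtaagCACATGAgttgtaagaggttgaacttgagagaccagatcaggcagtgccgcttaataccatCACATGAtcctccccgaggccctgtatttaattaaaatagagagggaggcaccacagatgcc
ABCA1: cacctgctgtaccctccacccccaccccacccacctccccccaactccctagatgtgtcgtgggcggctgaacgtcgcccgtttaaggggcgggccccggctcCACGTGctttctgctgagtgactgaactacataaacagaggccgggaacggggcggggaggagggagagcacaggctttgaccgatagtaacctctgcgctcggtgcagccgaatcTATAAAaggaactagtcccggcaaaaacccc

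In GPNMB the AP-1 match began 134 bases and the MITF boxes began 123 and 62 bases before the start. In ABCA1 the E-box began 147 and the TATA box 31 bases before it. Of the 8765 promoters 4.18% held TGANTCA on either strand, against 6.81% of promoters of genes that were higher and 2.02% of those of genes that were lower. TCATGTG was in 1.78%, 3.4% and 2.53%, CACGTG in 10.6%, 10.6% and 16.2%, and TATAAA in 5.77%, 11.1% and 8.59%, in the same order. CCGGAAG, the core bound by ETS factors, was in 19.7%, 9.79% and 14.6%. Matches of different motifs were allowed to share bases, and these shares carry no test.

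S100, annexin and AHNAK genes were the list with the highest median. Of 22 genes tested 10 rose and 0 fell (45.5%, against 5.22% of all genes), and the median was 0.342. All replated arrays lay above all fresh arrays for 17 of the 22, against 14.3% of all genes. Between 8 and 10 rose when 1 array was left out, and 8 kept their call in all 9 fits. Among these is LGALS3, which is also counted with the macrophage markers above. AHNAK, a giant scaffold protein that binds S100A10 and annexin A2 at the membrane, read 9.97, 10.01 and 9.91 in fresh and 10.80, 10.89 and 10.88 in replated cells. S100A10, the S100 partner of annexin A2, read 11.10, 11.12 and 11.01 against 11.85, 11.90 and 11.80. ANXA2 read 11.67, 11.62 and 11.68 against 12.31, 12.13 and 12.23. All 3 members of this complex were higher on every replated array, by 1.86-fold (0.89 ± 0.071, adjusted p = 0.000113), 1.71-fold (0.77 ± 0.063, adjusted p = 0.000142) and 1.48-fold (0.57 ± 0.073, adjusted p = 0.00293).

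AHNAK2, the related scaffold gene, read 5.28, 5.83 and 5.42 against 6.88, 6.69 and 6.65 and rose 2.35-fold (1.23 ± 0.16, adjusted p = 0.00293). S100A4, S100A6 and ANXA1 rose 1.43-fold, 1.45-fold and 1.34-fold (adjusted p = 0.00182, 0.00358 and 0.00911). A probe named ANXA2P1, a pseudogene copy of ANXA2, rose 1.68-fold, and whether it reads ANXA2 transcripts was not tested. Of 3 ANXA2 probes 2 were called, and the third differed by 0.33 (adjusted p = 0.0731). S100A8 rose 1.34-fold (adjusted p = 0.0231), a call lost without fresh replicate 1 (0.0714), fresh replicate 2 (0.0806), replated replicate 2 (0.0654) or replated replicate 3 (0.0873). S100P differed by -0.37 ± 0.17 and did not pass.

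Cytoskeletal and surface genes rose more singly. VIM, the intermediate filament vimentin, read 10.86, 10.93 and 10.93 in fresh and 11.96, 11.89 and 11.87 in replated cells, a 2.00-fold rise (1.00 ± 0.070, adjusted p = 4.27e-05), and its other probe was called 1.94-fold higher. ITGB7, an integrin subunit, read 7.45, 7.34 and 7.49 against 8.06, 8.30 and 8.10 and rose 1.66-fold (adjusted p = 0.00147). CD93, a C-type lectin-like receptor of myeloid cells, read 9.05, 9.16 and 9.25 against 9.82, 9.85 and 9.91 and rose 1.63-fold (adjusted p = 0.00227). The states did not overlap for these genes. CD44, the hyaluronan receptor, rose 1.35-fold on its brightest probe (adjusted p = 0.00911), while 2 further probes differed by 0.29 and -0.003 and were not called. Of 30 integrin and adhesion genes 2 rose (6.67%, against 5.22% of all genes called in either direction). Of 31 actin cytoskeleton genes 2 rose and 1 fell (9.68%), with 2 rising without replated replicate 1 and 1 without any other array, and 0 falling without fresh replicate 2 or 3 or any 1 of the replated arrays. MYL9, a myosin light chain gene, rose 1.57-fold (adjusted p = 0.00362), and another probe for it differed by 0.16 (adjusted p = 0.497).

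Among chemotactic receptors 3 rose. GPR183, the receptor for oxysterols that guide immune cells, read 7.79, 7.86 and 7.85 against 8.45, 8.45 and 8.52 and rose 1.56-fold (adjusted p = 0.00182). CXCR4, the receptor of CXCL12, read 9.68, 9.63 and 9.57 against 10.08, 10.28 and 10.18 and rose 1.47-fold (adjusted p = 0.00302). CCR2, the receptor of CCL2, read 9.80, 9.85 and 9.80 against 10.32, 10.18 and 10.20 and rose 1.34-fold (adjusted p = 0.00856). These 3 of 14 chemotactic receptors tested (21.4%, median 0.047) rose in all 9 fits without 1 array, 0 fell, and for each gene a further probe was called in the same direction.

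Antigen presentation and interferon genes gave a less stable count. Of 14 MHC class II and antigen processing genes 7 rose and 1 fell (57.1%, median 0.278), the latter being CD1D. The count of rises was 2 without any 1 of the fresh arrays or of replated replicates 1 and 2, 1 without replated replicate 3, 3 without frozen replicate 1 or 2 and 4 without frozen replicate 3. IFI30, a lysosomal thiol reductase, was the rising member that kept its call throughout, reading 5.55, 5.43 and 5.90 against 6.88, 6.69 and 6.51 (2.09-fold, adjusted p = 0.00293). HLA-DRA rose 1.32-fold (adjusted p = 0.0183), a call lost without fresh replicate 1 (0.0606), replated replicate 1 (0.0643) or replated replicate 3 (0.0671), and its other probe differed by 0.28 (adjusted p = 0.0541). Of 33 interferon-stimulated genes 4 rose and 1 fell (15.2%, median 0.09). Rises numbered 2 without fresh replicate 2, replated replicate 1 or replated replicate 3, 4 without frozen replicate 2 and 3 without any of the rest. GBP2, an interferon-inducible GTPase, read 5.14, 5.48 and 5.41 against 6.14, 6.19 and 6.22 and rose 1.79-fold (adjusted p = 0.00184). Of 19 MHC class I and immunoproteasome genes 0 were called, against 5.22% of all genes. Among the 19, 8 had an unadjusted p under 0.05 in limma's test, a level reached by 22% of all genes. The 1 fall among interferon-stimulated genes was lost without replated replicate 3.

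**Figure D3:**
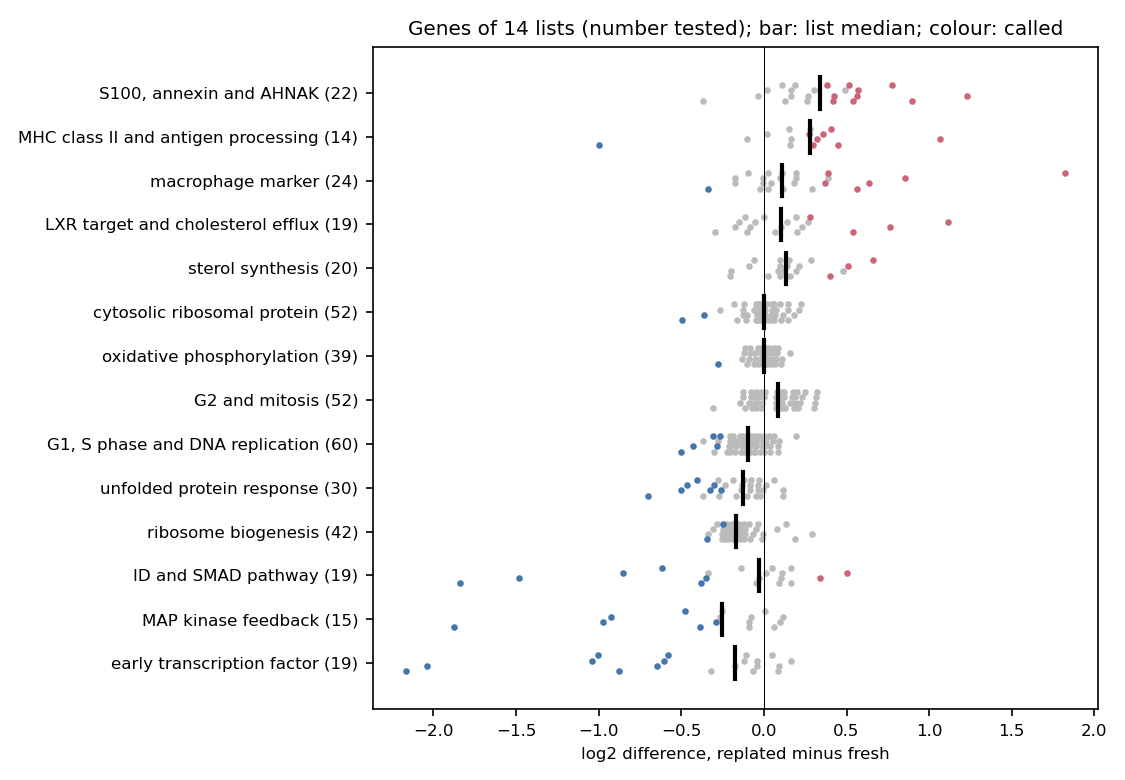
Log2 difference between replated and fresh cells (horizontal axis) for each tested gene of 14 lists (rows, number tested in brackets), with called genes in red (higher) or blue (lower), the rest in grey, and the list median as a black bar. Medians run from 0.342 for S100, annexin and AHNAK genes to -0.253 for MAP kinase feedback genes, while cytosolic ribosomal protein and oxidative phosphorylation genes centre on 0.

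Genes of protein folding, growth and DNA replication lay below 0 as lists, with few calls that were stable. Of 30 unfolded protein response genes 7 fell and 0 rose (23.3%, median -0.127), and 26 of the 30 differences were negative. The count of falls was 3 without fresh replicate 2, fresh replicate 3 or replated replicate 1, 4 without replated replicate 2, 1 without replated replicate 3 and 5 or 6 without any other array. HYOU1, a chaperone of the endoplasmic reticulum, read 9.32, 9.37 and 9.37 against 8.88, 8.91 and 8.75 and fell 1.42-fold (-0.50 ± 0.067, adjusted p = 0.00343). A further HYOU1 probe was called 1.26-fold lower. HSPA5 and DDIT3, standard reporters of this response, differed by -0.09 and -0.01 and did not pass. MTHFD1L, a mitochondrial folate enzyme, and SLC7A5, a transporter of large amino acids, fell 1.45-fold and 1.35-fold (adjusted p = 0.00267 and 0.0044) among 29 amino acid response genes, of which 4 fell and 1 rose (17.2%, median -0.089), the rise being lost without any 1 of the 9 arrays.

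Of 60 genes of G1, S phase and DNA replication 5 fell and 0 rose (8.33%, against 5.22% of all genes called, with a median of -0.095). That count was 1 without fresh replicate 1, fresh replicate 2 or replated replicate 2, 2 without fresh replicate 3, replated replicate 1, replated replicate 3 or frozen replicate 2, and 3 without frozen replicate 1 or 3. CCND1, which encodes cyclin D1, read 7.64, 7.80 and 7.69 against 7.34, 7.16 and 7.13 and fell 1.42-fold (adjusted p = 0.00663). Of 52 G2 and mitosis genes 0 were called (11 at an unadjusted p under 0.05, a level reached by 22% of all genes), and their median was 0.084. In ribosome biogenesis 38 of 42 differences were negative, with a median of -0.17. Of the 42 genes 21 had all replated arrays below all fresh arrays, against 14.1% of all genes. Yet 2 passed the test (4.76%, against 5.22% of all genes), with 0 passing without fresh replicate 2 or 3 or replated replicate 2 or 3 and 1 without any other array. Of 52 cytosolic ribosomal protein genes 26 differences were positive and 26 negative. Falls numbered 2 (3.85%, against 5.22% of all genes called), and 1 without fresh replicate 2 or replated replicate 1. RPL34 fell 1.41-fold (adjusted p = 0.00293) on 1 probe and differed by -0.14 (adjusted p = 0.336) on the other. Of 15 reference genes 0 were called (2 at an unadjusted p under 0.05, against 22% of all genes), with ACTB at 0.02 ± 0.069, GAPDH at 0.11 ± 0.067 and the chaperone HSPA8 at 0.01 ± 0.081.

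Every called probe for a small nucleolar RNA gene was lower in replated cells. These RNAs guide the chemical modification of ribosomal and other RNAs, and most are cut from introns of host transcripts. Of 34 tested, 10 were called lower and 0 higher (29.4%, against 5.22% of all genes), and the median was -0.267. The class was taken from the annotation after the values were seen. SNORD30 read 6.87, 6.74 and 6.85 in fresh and 6.16, 6.18 and 6.11 in replated cells and was 1.59-fold lower (-0.67 ± 0.089, adjusted p = 0.0035). SNORA70 read 8.60, 8.82 and 8.47 against 8.10, 8.05 and 8.20 and was 1.43-fold lower (adjusted p = 0.0124). These 2 kept their call in all 9 fits. The count of 10 became 3 without replated replicate 1 or 3, 5 without fresh replicate 2, and 6 without fresh replicate 1, fresh replicate 3 or replated replicate 2. Hosts of SNORD30 and SNORA70 were not tested, and of 7 tested hosts of the other called members 0 were called. RPL13A, the host of SNORD35A, differed by 0.002 ± 0.084, RPS2, the host of SNORA64 and SNORA10, by 0.05 ± 0.062, and RPL5, the host of SNORD21, by -0.04 ± 0.091. Mature small nucleolar RNAs lack a poly(A) tail, and whether the probes read them or unspliced host transcripts was not tested.

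**Figure D4:**
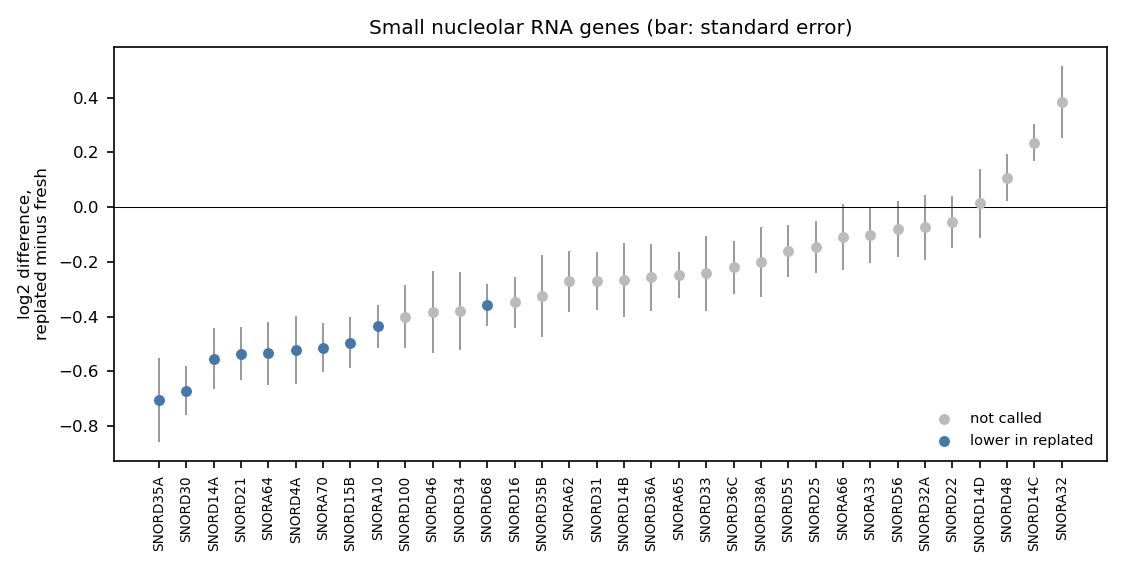
Log2 difference between replated and fresh cells (vertical axis, bars are limma's standard error) for 34 small nucleolar RNA genes (horizontal axis, ordered by difference), called genes in blue. SNORD35A and SNORD30 are lowest, the 10 called genes lie at -0.36 or below, and 4 of 34 differences are above 0.

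CIRBP, an RNA-binding protein induced by mild cold, read 11.13, 11.19 and 10.95 in fresh and 10.61, 10.40 and 10.58 in replated cells and fell 1.48-fold (-0.56 ± 0.084, adjusted p = 0.00595). Of 28 cold-inducible and splicing kinase genes 3 fell and 1 rose (14.3%, median 0.039). The count of rises was 0 without fresh replicate 2, replated replicate 1 or replated replicate 3, and 2 without frozen replicate 2. EPAS1, which encodes the hypoxia factor HIF-2 alpha, read 7.67, 7.78 and 7.72 against 8.43, 8.63 and 8.58 and rose 1.77-fold (adjusted p = 0.000806). The glycolytic enzyme ALDOC rose 1.47-fold (adjusted p = 0.00147), the 1 call among 18 glycolysis genes (5.56%, against 5.22% of all genes). MT1G, a metallothionein, fell 1.36-fold (adjusted p = 0.00412), and a probe for one metallothionein may also bind transcripts of its close relatives. Transporter genes moved in both directions, with 4 of 45 solute carriers higher and 5 lower (20%, median -0.018). The higher count was 2 without fresh replicate 2 and 1 without replated replicate 3, and the lower count was 3 without fresh replicate 1, replated replicate 1 or frozen replicate 2 and 2 without fresh replicate 2 or 3 or replated replicate 2 or 3. SLC31A1, the copper importer, fell 1.33-fold and SLC15A3, a peptide transporter of lysosomes, rose 1.33-fold (adjusted p = 0.00665 and 0.00915).

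The frozen arrays, in the same fit, give the level of these genes in the remaining state. GPNMB averaged 6.30 in fresh, 8.12 in replated and 6.47 in frozen cells, and VIM 10.91, 11.91 and 10.86. ID1 averaged 9.69, 7.85 and 9.51 in the same order, and ID3 averaged 8.36, 6.88 and 8.44. For these genes the replated arrays stood apart and frozen cells lay near fresh ones. EGR1 averaged 11.21, 9.04 and 12.11 and DUSP1 7.69, 5.82 and 11.42, so that for these early genes fresh cells lay between the other states. GPR183 averaged 7.83, 8.47 and 8.57, with replated and frozen cells both above fresh cells. The comparisons of replated with fresh and of frozen with fresh cells share the fresh arrays.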

How the data were processed

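Per the labels, total RNA of THP-1 cells was extracted with the QIAGEN miRNeasy kit and made into biotinylated cRNA for Illumina arrays. Per the file headers the deposited signal of each probe is an intensity that was not normalized. Beside it stands a detection score for each probe and array, which the deposited headers call a p-value but which rises with the signal of its own array and was used as 1 minus p. The authors' own processed values, also a linear intensity, are equal in distribution between arrays (rank correlation 1 with the signal, column medians 5.039 to 5.064) and served as an alternative. The sources used here do not give how the authors summarised beads and computed these values, nor the slides or scans.

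Signal was background-corrected and quantile-normalized with limma 3.58.1 in R 4.3.3 (neqc, offset 16, negative controls inferred from the detection p), and log2 differences were fitted over all 9 arrays (lmFit, eBayes, 6 residual and 4.57 prior degrees of freedom). Folds of dim probes are understated on this scale, and the number of arrays limits the precision. The design text calls replicates biological without saying how they were separated, so p-values measure the spread between these samples. Same-numbered fresh and replated arrays did not deviate together (correlations -0.04, 0.02 and 0.01), so the numbers were not taken as pairs.

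Symbols came from the array's annotation: 27578 of 48803 probes had 1 symbol, 13 several and 21212 none, and 27541 were updated by Entrez identifier, 12 by accession and 25 kept. Promoters were found for 111 of 138 genes of the naming rule, which took the 20 largest called increases and decreases without overlap, up to 4 called members of each of 58 gene lists, and 12 further genes. JUN, SMAD3, SMAD6, S100A4, S100A6, S100A8, ANXA1, SNORD30, SNORA70 and list members given as not passing were named after their values were seen. The comparison, the lists and the naming rule were chosen with earlier results of these data known. The fit was tested on simulated data. Each array was left out in turn. The threshold, the offset, the variance prior, the detection filter (3 ways), the scaling and the arrays in the fit were varied, background correction was dropped, a replicate block or array weights were added, and the authors' values were fitted.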

Additional observations from a re-analysis of the deposited data

How the results depend on the processing

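The number of called probes (822, with 445 higher and 377 lower, and 556 genes) moved with the processing, and with 3 arrays per state this limits the statements on counts. It was 1339 probes (720 and 619, 915 genes) with an offset of 50, 1516 (796 and 720, 1044 genes) without background correction and 1569 (809 and 760, 1091 genes) with a trended, robust variance prior. It was 484 (218 higher, 327 genes) with median centring, where 45% of calls were higher against 54.1%, 544 (242 lower, 368 genes) with the 6 fresh and replated arrays alone, and 174 (100 and 74, 128 genes) at an adjusted p under 0.01. With the replicate number as a block it was 499 (275 and 224, 339 genes), of which 471 were called without the block. The numbers are not taken to pair the samples. Leaving out 1 array gave 254 to 738 probes (137 to 393 higher, 117 to 345 lower) and 183 to 484 genes, the construction leaving fewer arrays. The cause of the other moves was not tested. The authors' values, the filters on detection and array weights kept each count within 1.5 times.

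Of 129 called genes of the naming rule 65 kept their call under every omission and every alternative that tested them, the stricter threshold aside, 64 lost it without at least 1 array, and 0 changed direction. Median centring ended 34 of the 129 calls, the 6 arrays alone 27, the block 27, the authors' values 9, no filter 8, and detection on 3 of all 9 arrays 4. Dim probes close to background, such as CCN1, give bounds only. Median centring moved the median over all probes from -0.0031 to -0.0253.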

Other observations

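Some genes outside the lists and the naming rule also kept their call in all 9 fits without 1 array. They were chosen here after their values were seen. CD209, the dendritic cell lectin DC-SIGN, read 7.06, 6.91 and 7.01 in fresh and 7.51, 7.54 and 7.54 in replated cells and rose 1.45-fold (limma, Benjamini-Hochberg adjusted p = 0.00438). VSIR, the inhibitory receptor VISTA of myeloid cells, read 7.73, 7.73 and 7.82 against 8.57, 8.35 and 8.32 and rose 1.57-fold (adjusted p = 0.00872). MYO1G, a myosin of blood cells, rose 1.57-fold, and the cytosolic phospholipase gene PLA2G4C rose by 0.59 on the log2 scale (adjusted p = 0.00867 and 0.00358). OPTN, the autophagy cargo receptor optineurin, rose 1.46-fold and RB1CC1, a subunit of the kinase complex that starts autophagy, 1.36-fold (adjusted p = 0.00921 and 0.0101).

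Decreases chosen in the same way follow. GP1BB, a subunit of the platelet receptor for von Willebrand factor, read 10.06, 10.16 and 10.12 in fresh and 9.54, 9.64 and 9.67 in replated cells and fell 1.41-fold (adjusted p = 0.00441). TREML1, a platelet granule receptor, read 5.49, 5.49 and 5.31 against 4.88, 4.73 and 4.81 and was detected on 0 of the replated arrays, so that it was at least 1.40-fold lower against the dimmest detected signal (adjusted p = 0.00227). The platelet chemokines PF4 and PPBP were detected on 0 of 6 arrays. CKAP4, a membrane protein of the endoplasmic reticulum, fell 1.47-fold and GMPPB, which makes GDP-mannose, 1.46-fold (adjusted p = 0.00293 and 0.00595), while another GMPPB probe differed by -0.23 (adjusted p = 0.0829).

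The YPEL genes were also picked after their values were seen. Of the 4 tested 75% were called, against 5.22% of all genes. YPEL2, YPEL3 and YPEL5 were called higher, by 0.48, 0.56 and 0.32 on the log2 scale (adjusted p = 0.0306, 0.018 and 0.0392), and YPEL1 differed by 0.14 ± 0.095. The calls were lost without 6, 4 and 7 of the 9 arrays. For YPEL3 these were fresh replicates 2 and 3 and replated replicates 1 and 2, with an adjusted p of up to 0.0639. YPEL2 lost its call without any 1 of the fresh and replated arrays (up to 0.0915), and YPEL5 without any 1 of these or frozen replicate 3 (up to 0.131).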
